A study of Homo sapiens with 12 samples.

Results

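The 36 genes described here work in the unfolded protein response, by which a cell matches the folding capacity of its endoplasmic reticulum (ER) to the load of new proteins. They were taken as a named list, chosen with earlier results of these data known, and all 36 were among the 23228 genes in the deposited files. All 36 also passed the filter on low counts, which left 14541 genes for testing. For the description they were divided by role into 5 sensors and transcription factors, 11 genes of the XBP1 branch, 11 genes of the ATF6 branch and 9 genes of ER-associated degradation. Several of them respond to more than 1 branch, so the division orders the text and is not a measurement.

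The cells were MDA-MB-468, a human triple-negative breast cancer line, which here carried full-length estrogen receptor β (ERβ1, encoded by ESR2) under doxycycline control. RNA was sequenced from 12 libraries in 4 groups of 3. Induced E2 cells had 50 ng/mL doxycycline for 48 hours and then 10 nM 17β-estradiol (E2) for 4 hours. Induced vehicle cells had the same doxycycline and then 0.1% DMSO, uninduced E2 cells had E2 without doxycycline, and uninduced vehicle cells had DMSO without doxycycline. All groups were grown without phenol red in charcoal-stripped serum, at 10% for 3 days and at 5% in the experiment. No line given doxycycline without the receptor was used here, so doxycycline itself and ERβ1 cannot be told apart as sources of a difference between induced and uninduced cells. The labels call no replicate a separate culture, so the p-values measure the spread between these samples, which may be technical.

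As background, unfolded protein in the ER lumen is sensed by transmembrane proteins. IRE1, encoded by ERN1, cuts XBP1 mRNA so that a frameshifted and active transcription factor is made, ATF6 is cut in the Golgi to release another factor, and PERK, encoded by EIF2AK3, slows translation. Together these factors raise chaperones, translocation and export machinery, and the degradation of misfolded proteins. XBP1 is also a well-known estrogen target in breast cancer cells that carry estrogen receptor α.

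Library depth was 7.89 M to 33.3 M expected counts. ESR2 stood at 116, 98.6 and 98.0 CPM in induced E2 cells, at 134, 113 and 115 CPM in induced vehicle cells, at 2.26, 1.28 and 1.27 CPM in uninduced E2 cells and at 1.37, 1.06 and 1.47 CPM in uninduced vehicle cells, so it was high in each library labelled as induced. The epithelial gene EPCAM lay at 416 to 450 TPM (a length-corrected level), ESR1 at 1.07 to 2.10 and PGR at 0 to 0.03, and the stromal genes DCN and LUM were listed at 0 in all 12 libraries. These are a part of the markers planned, and the levels of others, ERBB2 and the collagens among them, are not given. Libraries numbered 1 stood apart from those numbered 2 and 3 in every group. They carry an earlier date in the file names, and for each comparison below the direction of the 36 genes is given apart for the libraries numbered 1 and for those numbered 2 and 3.

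Levels between genes were compared per transcript length, in TPM, the deposited length-corrected share of transcripts scaled to a common total. Averaged over the 12 libraries, the lectin chaperones led: CALR (calreticulin) stood at 1403 and CANX (calnexin) at 1050 TPM. HSP90B1, the ER member of the HSP90 family, followed at 706, XBP1 at 631, the disulfide isomerase PDIA6 at 559 and HSPA5 (BiP), the main ER chaperone and a brake on all the sensors, at 377 TPM. At the other end were the oxidase ERO1LB at 3.86, the sensor ERN1 at 3.49 and the retrotranslocation factor DERL3 at 2.33 TPM. The sensors ATF6 and EIF2AK3 stood at 20.4 and 21.4 TPM, neighbours in the order whose ranges overlapped. XBP1 reached 993 to 1143 TPM in induced E2 cells, where its range overlapped that of CANX, and in the uninduced groups it stood below PDIA6.

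**Figure D1:**
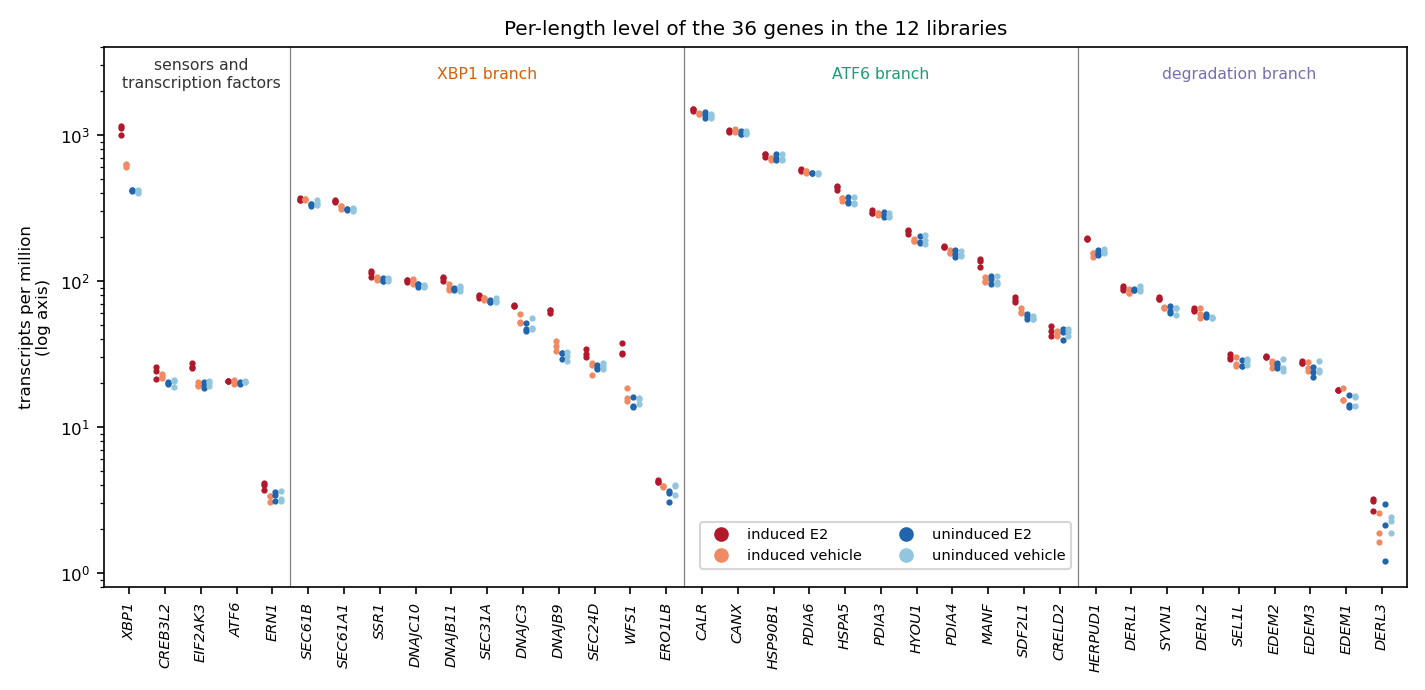
Per-length level of each of the 36 genes in the 12 libraries, in TPM on a log axis, with 1 point per library and the genes ordered within each role group by their mean level. CALR leads at a mean of 1403 and DERL3 is lowest at 2.33, and the induced E2 points of XBP1, DNAJB9 and WFS1 stand clear above their other points.

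Summed over the 36 genes, the level was 11470 to 11634 CPM (TMM-scaled counts, not corrected for length) in induced E2 libraries and 10050 to 10222 CPM in induced vehicle libraries. It was 9559 to 9888 CPM in uninduced E2 libraries and 9458 to 9820 CPM in uninduced vehicle libraries. The induced E2 range lay above the ranges of the other 3 groups, that of induced vehicle above both uninduced ranges, and the ranges of the uninduced groups overlapped. Abundant genes weigh most in this sum. From uninduced vehicle to induced vehicle the mean of XBP1 went from 333 to 511 CPM and that of CANX from 2368 to 2477 CPM. Of the 36 genes, 29 were higher in that comparison and 2 were called, as given below.

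The promoters of the list were read to show which carry the textbook sites of the response. The windows were those of RefSeq (GRCh38.p14), 300 bases from 250 before to 50 after each start, and 32 of the 36 genes had an entry. SEC24D, PDIA3, DERL1 and DERL3 had none. Exact letters were searched on both strands, and a gene with several windows counted if any of them held the letters. The ER stress response element ERSE (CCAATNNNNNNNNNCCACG), known to bind ATF6 together with the CCAAT factor NF-Y, was found in 8 of 32 genes (25.0%) and in 0.0916% of the 27305 gene symbols in the table. Those 8 were XBP1, ERO1LB, HSPA5, HSP90B1, CALR, CANX, PDIA6 and CRELD2, so 6 of the 10 ATF6 branch genes with an entry had it. The shorter ERSE-II (ATTGGNCCACG) was found in HYOU1, SDF2L1 and HERPUD1, 3 of 32 genes (9.38%) against 0.0696% of symbols. The core of the XBP1 element (TGACGTG) was found in DNAJC10, SEC61A1 and HYOU1, 9.38% of the genes against 2.40% of symbols, and its match in HYOU1 overlapped the farther upstream of the 2 ERSE-II there, which is not the one printed below. The palindromic estrogen response element (GGTCANNNTGACC) was in none of the 32 windows and in 0.0732% of symbols, which says only that these letters were not in these 300 bases.

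A few of these matches are shown, picked by outcome so that genes called for E2 in induced cells stand beside CANX, which was not called there. Of all 11 genes with ERSE or ERSE-II, 7 were called in that comparison, so the printed lines do not give that share. Each line is read 5′ to 3′ on the strand that carries the site, in lower case with the matched element in capitals; the first 4 are ERSE and the last 3 ERSE-II.
XBP1: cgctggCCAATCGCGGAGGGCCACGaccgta
HSPA5: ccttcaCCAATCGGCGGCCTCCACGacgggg
CALR: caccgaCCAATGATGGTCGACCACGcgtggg
CANX: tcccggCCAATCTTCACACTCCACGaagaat
HERPUD1: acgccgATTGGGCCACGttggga
SDF2L1: gttttgATTGGTCCACGcttccg
HYOU1: gtactcATTGGACCACGtcccag
By their place in GRCh38.p14 these are chr22:28800597-28800627 for XBP1, chr9:125241385-125241415 for HSPA5, chr19:12938378-12938408 for CALR and chr5:179698772-179698802 for CANX. The others are chr16:56932019-56932041 for HERPUD1, chr22:21642108-21642130 for SDF2L1 and chr11:119057268-119057290 for HYOU1. The plus strand is shown for CANX, HERPUD1 and HYOU1 and the minus strand for the other four. All lie upstream of a start of the gene, the XBP1 site from position −52 and the HSPA5 site from position −66.

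Of the 2 XBP1 windows in the table, which belong to different starts, the one with the ERSE is given whole, since XBP1, like DNAJB9, was called in every comparison below except E2 in uninduced cells. It covers chr22:28800520-28800819 (GRCh38.p14, minus strand, read 5′ to 3′), upstream of the first exon and into it, with the ERSE in capitals.
XBP1 promoter: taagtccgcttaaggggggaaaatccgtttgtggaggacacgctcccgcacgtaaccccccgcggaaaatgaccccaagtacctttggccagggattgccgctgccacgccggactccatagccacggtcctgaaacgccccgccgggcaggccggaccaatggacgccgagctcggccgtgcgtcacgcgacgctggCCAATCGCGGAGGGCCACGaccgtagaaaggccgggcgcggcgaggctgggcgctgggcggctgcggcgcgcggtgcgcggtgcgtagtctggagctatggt

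The E2 response in the presence of the receptor was read from induced E2 against induced vehicle cells. Of the 36 genes, 19 rose and 0 fell at an adjusted p under 0.05 in edgeR's quasi-likelihood test, against a background in which 9.85% of all genes tested rose and 6.61% fell. The 19 were 2 of the 5 sensors and transcription factors, 7 of the 11 XBP1 branch genes, 7 of the 11 ATF6 branch genes and 3 of the 9 degradation genes. The median difference of the 36 was 0.16 log2, and −0.00 log2 over all genes tested. All 36 differences were positive, as were 7042 of the 14541 tested. In 29 genes the lowest induced E2 library lay above the highest induced vehicle library, which was the case for 16.6% of all genes tested. With the replicate number as a block, 27 of the 36 rose, among them 4 sensors and transcription factors and 7 degradation genes, against 13.5% of all genes that rose and 10.3% that fell. Between the libraries numbered 1, 34 of the 36 differences were positive. In those numbered 2 and 3 all 36 were positive and 24 genes rose, against 13.1% of all genes that rose and 10.1% that fell, the 5 added being CREB3L2, SEL1L, EDEM1, EDEM3 and DERL1. In RNA from whole cultures, more responding cells and more RNA per cell cannot be told apart.

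**Figure D2:**
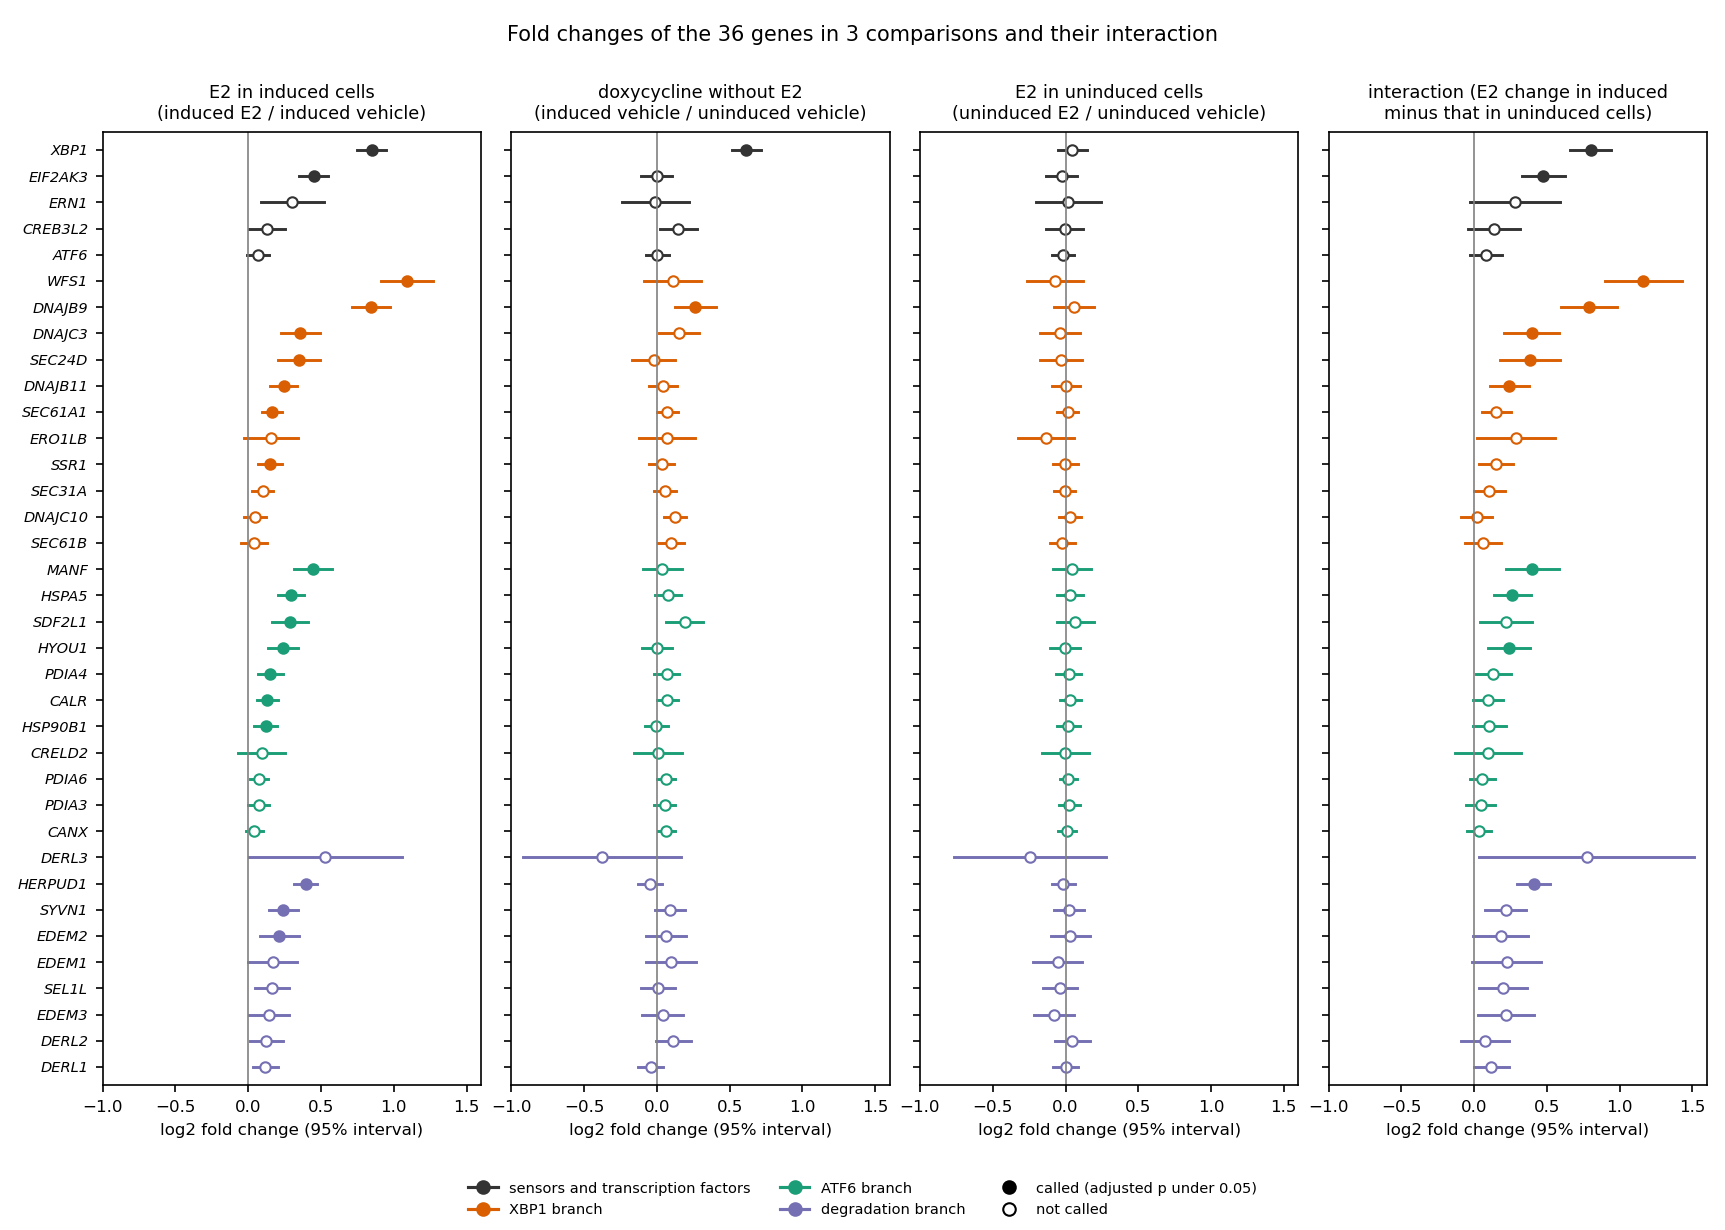
Log2 fold change of each of the 36 genes with its 95% interval (points and bars, filled where the adjusted p is under 0.05) in 4 panels. From left to right they show induced E2 over induced vehicle, induced vehicle over uninduced vehicle, uninduced E2 over uninduced vehicle and the interaction, and the numbers of filled points are 19, 2, 0 and 11, all to the right of 0.

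Among the sensors and transcription factors, XBP1 stood at 847, 973 and 939 CPM in induced E2 cells, against 522, 501 and 511 CPM in induced vehicle cells. Uninduced E2 cells had 336, 352 and 346 CPM and uninduced vehicle cells 323, 343 and 333 CPM. The levels thus formed 3 steps, with induced E2 above induced vehicle and both above the uninduced groups, which overlapped each other. With E2 in induced cells XBP1 rose 1.80-fold (log2 0.85, SE 0.05, edgeR adjusted p = 1.13e-08). The difference was 0.70 log2 between the libraries numbered 1 and 0.92 log2 between those numbered 2 and 3. Gene-level counts do not separate the spliced from the unspliced XBP1 transcript, so the activity of IRE1 is not measured by them.

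EIF2AK3, the PERK kinase, stood at 57.5, 61.2 and 56.9 CPM in induced E2 cells, against 44.5, 42.7 and 41.9 CPM in induced vehicle cells. Its uninduced libraries held 43.8, 40.5 and 42.5 CPM with E2 and 44.5, 41.4 and 43.6 CPM with vehicle. The induced E2 libraries were high and the other 9 lay together between 40.5 and 44.5 CPM. EIF2AK3 rose 1.37-fold with E2 in induced cells (log2 0.45, SE 0.05, edgeR adjusted p = 1.05e-05).

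The other 3 genes of this group did not pass the test for E2 in induced cells. ERN1 had 7.73, 8.02 and 7.10 CPM in induced E2 cells, against 5.75, 6.35 and 6.31 CPM in induced vehicle cells. These ranges did not overlap, and the difference of 0.30 log2 (95% interval 0.08 to 0.52) had an edgeR adjusted p = 0.0581, or adjusted p = 0.0395 with the block. The uninduced libraries of ERN1 held 6.28, 6.78 and 5.80 CPM with E2 and 5.87, 5.81 and 6.83 CPM with vehicle.

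ATF6 had 75.6, 76.0 and 75.3 CPM in induced E2 cells, against 75.2, 70.2 and 72.0 CPM in induced vehicle cells, a difference of 0.07 log2 (95% interval −0.01 to 0.14, edgeR adjusted p = 0.267). Its uninduced libraries held 71.7, 70.7 and 71.5 CPM with E2 and 71.2, 72.8 and 72.1 CPM with vehicle, so all 12 libraries lay between 70.2 and 76.0 CPM. CREB3L2, an ER-tethered factor related to ATF6, had 77.8, 87.2 and 91.9 CPM in induced E2 cells, against 75.6, 78.6 and 80.7 CPM in induced vehicle cells. Those groups overlapped, with the library numbered 1 lowest in each. The difference was 0.13 log2 (95% interval 0.01 to 0.25, edgeR adjusted p = 0.166, or adjusted p = 0.0255 with the block and 0.0218 without induced E2 replicate 1). Uninduced libraries of CREB3L2 held 70.0, 71.6 and 69.6 CPM with E2 and 65.1, 73.7 and 71.8 CPM with vehicle.

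**Figure D3:**
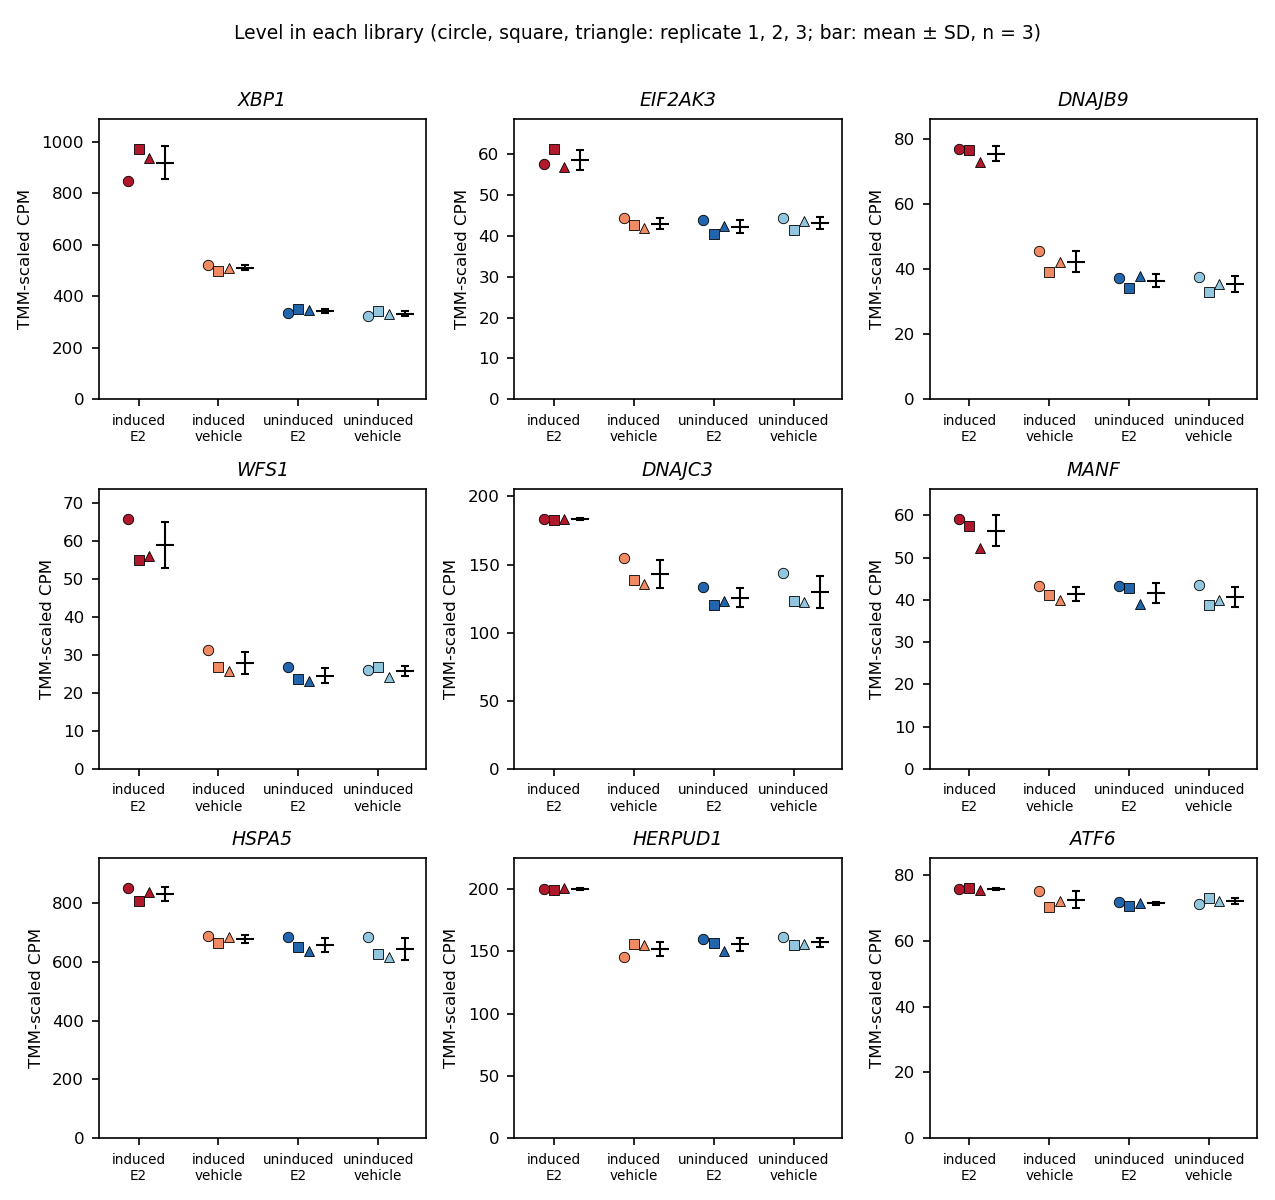
TMM-scaled CPM (y axis, from 0) of 9 of the genes in each library (circle, square and triangle for replicates 1, 2 and 3), with the mean and SD of each group of 3 beside them. XBP1 shows 3 levels, EIF2AK3, DNAJC3, MANF, HSPA5 and HERPUD1 are highest in the induced E2 libraries, and ATF6 lies between 70.2 and 76.0 CPM in all 12 libraries.

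In the XBP1 branch the largest difference was in WFS1, which encodes wolframin, an ER membrane protein mutated in Wolfram syndrome. It stood at 66.0, 55.1 and 56.1 CPM in induced E2 cells, against 31.2, 26.8 and 25.7 CPM in induced vehicle cells. Uninduced libraries held 26.7, 23.7 and 23.2 CPM with E2 and 26.1, 26.8 and 24.3 CPM with vehicle. The 3 induced E2 libraries thus stood alone above the other 9, which overlapped. WFS1 rose 2.13-fold (log2 1.09, SE 0.08, edgeR adjusted p = 4.12e-07), by 1.08 log2 both between libraries numbered 1 and between those numbered 2 and 3.

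DNAJB9, also called ERdj4, a co-chaperone of BiP that represses IRE1 and is a standard XBP1 target, stood at 76.9, 76.6 and 72.8 CPM in induced E2 cells, against 45.6, 39.2 and 42.1 CPM in induced vehicle cells. Uninduced libraries held 37.4, 34.3 and 37.8 CPM with E2 and 37.7, 33.0 and 35.4 CPM with vehicle. The lowest induced vehicle library was above the highest uninduced one, and induced E2 libraries were far above both. DNAJB9 rose 1.80-fold with E2 in induced cells (log2 0.84, SE 0.06, edgeR adjusted p = 1.96e-07).

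DNAJC3, a BiP co-chaperone that also restrains PERK, stood at 184, 182 and 183 CPM in induced E2 cells, against 155, 139 and 136 CPM in induced vehicle cells. In uninduced cells it stood at 134, 120 and 123 CPM with E2 and at 144, 123 and 122 CPM with vehicle. Its library numbered 1 was the highest in each of the 4 groups, and the induced E2 libraries were above all others. DNAJC3 rose 1.28-fold (log2 0.36, SE 0.06, edgeR adjusted p = 0.000852), by 0.25 log2 between libraries numbered 1 and by 0.41 log2 between those numbered 2 and 3. DNAJB11, or ERdj3, which hands unfolded substrates to BiP, had 83.2, 79.2 and 84.0 CPM in induced E2 cells, against 72.7, 69.5 and 66.1 CPM in induced vehicle cells, with no overlap (log2 0.24, SE 0.04, edgeR adjusted p = 0.00109).

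The other 3 called genes of the branch handle entry into and exit from the ER. SEC24D, a cargo-binding subunit of the COPII coat, rose by 0.35 log2 (SE 0.07). SEC61A1, the channel of the translocon, rose by 0.17 log2 (SE 0.03). SSR1, a translocon-associated protein, rose by 0.15 log2 (SE 0.04, edgeR adjusted p = 0.0160), a call that was lost without induced vehicle replicate 3, induced E2 replicate 2 or induced E2 replicate 3 (adjusted p = 0.0588 to 0.0897).

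Not called in the XBP1 branch were the COPII subunit SEC31A at 0.10 log2 (edgeR adjusted p = 0.0690, or 0.0208 with the block), the oxidase ERO1LB at 0.16, the reductase DNAJC10 at 0.05 and the translocon subunit SEC61B at 0.04 log2. The intervals of the last 3 reached from −0.03 to 0.34, from −0.03 to 0.12 and from −0.05 to 0.13 log2.

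In the ATF6 branch, HSPA5 stood at 850, 805 and 835 CPM in induced E2 cells, against 687, 662 and 683 CPM in induced vehicle cells. Its uninduced libraries held 684, 649 and 635 CPM with E2 and 685, 626 and 617 CPM with vehicle. Every induced E2 library was above the other 9, which overlapped across groups. HSPA5 rose 1.23-fold (log2 0.29, SE 0.04, edgeR adjusted p = 0.000179), by 0.31 log2 between libraries numbered 1 and by 0.29 log2 between those numbered 2 and 3.

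MANF, a small ER protein that binds BiP and is secreted under stress, stood at 59.3, 57.5 and 52.3 CPM in induced E2 cells, against 43.3, 41.1 and 40.0 CPM in induced vehicle cells. In uninduced cells it stood at 43.3, 42.7 and 39.0 CPM with E2 and at 43.5, 38.9 and 39.9 CPM with vehicle. The 9 libraries other than induced E2 lay between 38.9 and 43.5 CPM. MANF had the largest difference of the branch, 1.36-fold (log2 0.44, SE 0.06, edgeR adjusted p = 9.53e-05).

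SDF2L1, a partner of BiP in the lumen, had 28.7, 30.2 and 27.5 CPM in induced E2 cells, against 22.8, 24.7 and 23.0 CPM in induced vehicle cells (log2 0.29, SE 0.06, edgeR adjusted p = 0.00247). HYOU1, or GRP170, a nucleotide exchange factor for BiP, had 491, 454 and 476 CPM in induced E2 cells, against 397, 401 and 408 CPM in induced vehicle cells (log2 0.24, SE 0.05, edgeR adjusted p = 0.00297). Neither gene overlapped between these groups.

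The remaining called genes of the branch, all abundant, had smaller differences on the log2 scale. PDIA4 rose by 0.15 log2 (SE 0.04), CALR by 0.13 (SE 0.03, edgeR adjusted p = 0.0154) and HSP90B1 by 0.12 (SE 0.04, edgeR adjusted p = 0.0376). The CALR call was lost without induced vehicle replicate 3, induced E2 replicate 1 or induced E2 replicate 3 (adjusted p = 0.0513 to 0.0557). That of HSP90B1, which has a near-identical pseudogene copy, was lost under upper quartile scaling (adjusted p = 0.110) and without uninduced vehicle replicate 3, uninduced E2 replicate 3, induced vehicle replicates 2 or 3, or induced E2 replicates 1 or 3, each left out alone (adjusted p = 0.0507 to 0.122). PDIA6 was at 0.07 log2 (edgeR adjusted p = 0.0976, or 0.0274 with the block), PDIA3 at 0.07, CANX at 0.04 and the folding factor CRELD2 at 0.09 log2, and none of these passed the test. Calnexin, whose promoter carries the ERSE shown above, had an interval of −0.02 to 0.10 log2.

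Among the degradation genes, HERPUD1, which organises the HRD1 ubiquitin ligase complex, stood at 200, 199 and 201 CPM in induced E2 cells, against 145, 155 and 155 CPM in induced vehicle cells. Uninduced libraries held 160, 157 and 150 CPM with E2 and 161, 155 and 156 CPM with vehicle. The induced E2 libraries were tightly grouped above the other 9, of which induced vehicle replicate 1 was the lowest. HERPUD1 rose 1.31-fold (log2 0.39, SE 0.04, edgeR adjusted p = 3.14e-06), by 0.46 log2 between libraries numbered 1 and by 0.37 log2 between those numbered 2 and 3.

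SYVN1, the HRD1 ligase itself, had 110, 109 and 112 CPM in induced E2 cells, against 94.0, 92.9 and 93.2 CPM in induced vehicle cells, with no overlap (log2 0.24, SE 0.05, edgeR adjusted p = 0.00198). EDEM2, which trims mannose from misfolded glycoproteins, had 28.1, 27.7 and 27.8 CPM in induced E2 cells, against 25.1, 22.8 and 24.6 CPM in induced vehicle cells, also without overlap (log2 0.21, SE 0.06, edgeR adjusted p = 0.0269). That call was lost under upper quartile scaling (adjusted p = 0.0545), with DESeq2 (adjusted p = 0.0549), and without induced vehicle replicates 2 or 3 or any 1 induced E2 library (adjusted p = 0.0554 to 0.140).

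SEL1L, the adaptor of HRD1, had 93.1, 100 and 95.4 CPM in induced E2 cells, against 93.5, 82.0 and 83.8 CPM in induced vehicle cells, where the library numbered 1 gave the overlap. Its difference was 0.16 log2 (edgeR adjusted p = 0.0577, or 0.00991 with the block and 0.00775 without induced vehicle replicate 1). EDEM1 had 53.3, 53.0 and 53.0 CPM in induced E2 cells, against 53.4, 44.8 and 44.7 CPM in induced vehicle cells (log2 0.17, edgeR adjusted p = 0.182, or 0.0199 with the block and 0.0297 without induced vehicle replicate 1). Between the libraries numbered 1 the difference in SEL1L was −0.01 log2, and among those numbered 2 and 3 it had an adjusted p = 0.000381. For EDEM1 the libraries numbered 2 and 3 gave an adjusted p = 0.00415.

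Leaving out induced vehicle replicate 1 raised the number of degradation genes called to 7. Over all genes 1457 then rose and 1024 fell, against 1433 and 961 in the main fit. In the main fit, with all 12 libraries, the remaining degradation genes were not called. EDEM3 was at 0.14 log2 (edgeR adjusted p = 0.171, or 0.0216 with the block). DERL1, of the channel family through which substrates leave the ER, was at 0.12 log2 (edgeR adjusted p = 0.0587, or 0.0194 with the block, 0.0220 without induced vehicle replicate 1, 0.0480 without induced E2 replicate 1 and 0.0497 without uninduced vehicle replicate 1). DERL2 was at 0.12 log2 (edgeR adjusted p = 0.151, or 0.0371 without induced vehicle replicate 1). DERL3, the lowest of the 36, had 2.22, 2.36 and 2.20 CPM in induced E2 cells, against 1.55, 1.92 and 1.10 CPM in induced vehicle cells, and its interval of 0.01 to 1.05 log2 was the widest of the list (edgeR adjusted p = 0.180).

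Set against exact matches to ERSE or ERSE-II in these windows, the E2 differences in induced cells were of like size with and without them. The 11 genes with either element had a median difference of 0.16 log2 and 7 of them were called, while the 21 with neither had a median of 0.17 log2 and 11 called. The genes with neither still include DNAJC10 and SEC61A1, which hold the XBP1 core. They also include WFS1, DNAJC3, SEL1L, SYVN1 and MANF, which match ERSE or ERSE-II when 1 mismatch is allowed. These counts are a description and were not tested, and say nothing on whether a site is used.

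Doxycycline without ligand was examined in induced vehicle against uninduced vehicle cells. Of the 36 genes, 2 rose and 0 fell, against 2.44% of all genes tested that rose and 1.37% that fell. The median difference was 0.06 log2 and that of all genes −0.00 log2. Of the 36 differences 29 were positive, as were 7199 of the 14541 tested. In 11 genes the induced vehicle libraries all lay above the uninduced vehicle ones, against 10.5% of all genes tested. XBP1 rose 1.53-fold (log2 0.62, SE 0.05, edgeR adjusted p = 2.22e-06), with 522, 501 and 511 CPM in induced vehicle cells against 323, 343 and 333 CPM in uninduced vehicle cells. The difference was 0.69 log2 between libraries numbered 1 and 0.58 log2 between those numbered 2 and 3. XBP1 was called in all 21 alternatives tried.

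The second called gene, DNAJB9, was 1.20-fold higher in induced vehicle than in uninduced vehicle cells (log2 0.26, SE 0.07, edgeR adjusted p = 0.0372). Its call was lost under upper quartile scaling (adjusted p = 0.0550), with only the groups compared (adjusted p = 0.0964), and on leaving out any 1 of uninduced vehicle replicates 2 or 3, induced vehicle replicates 1 or 3, or induced E2 replicates 2 or 3 (adjusted p = 0.0511 to 0.192). With the block 6 of the 36 genes rose, against 5.54% of all genes that rose and 4.48% that fell, the others being CREB3L2 (adjusted p = 0.0354), DNAJC3 (adjusted p = 0.0174), DNAJC10 (adjusted p = 0.0121) and SDF2L1 (adjusted p = 0.0317). DNAJC10 was also called without induced vehicle replicate 2 (adjusted p = 0.0495). Between the libraries numbered 1, 24 of the 36 differences were positive, and in those numbered 2 and 3 it was 30. Numbers 2 and 3 alone gave 4 genes that rose, against 4.4% of all genes that rose and 3% that fell, the added ones being DNAJC3 (adjusted p = 0.00620) and HSPA5 (0.11 log2, adjusted p = 0.0259).

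The other sensors did not pass that test. EIF2AK3 differed by −0.00 log2 (95% interval −0.11 to 0.11), ATF6 by 0.00 (−0.07 to 0.08) and ERN1 by −0.01 (−0.24 to 0.22) between induced vehicle and uninduced vehicle cells. WFS1 differed by 0.11 log2 (95% interval −0.09 to 0.30) and HSPA5 by 0.08 (95% interval −0.01 to 0.17). HERPUD1 was at −0.05 log2 (95% interval −0.13 to 0.03).

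In the presence of ligand, doxycycline was examined in induced E2 against uninduced E2 cells. Here 30 of the 36 genes rose and 0 fell, against 15% of all genes tested that rose and 13% that fell. Over all genes 2184 rose and 1894 fell, while under upper quartile scaling 1799 rose and 2679 fell, and 27 of the 36 rose and 0 fell. With the block 32 of the 36 rose, against 19.1% of all genes that rose and 18.2% that fell. All 36 differences were positive, as were 6893 of the 14541 genes tested. They were also all positive between the libraries numbered 1 and in those numbered 2 and 3. Numbers 2 and 3 alone gave 31 genes that rose, against 18.3% of all genes that rose and 16.4% that fell, the added gene being HSP90B1 (adjusted p = 0.00276). The 30 were 3 of 5 sensors and transcription factors, 11 of 11 XBP1 branch genes, 9 of 11 ATF6 branch genes and 7 of 9 degradation genes, and the median of the 36 was 0.25 log2 (−0.01 log2 over all genes). In 34 genes the induced E2 libraries all lay above the uninduced E2 ones, against 20.9% of all genes tested. This comparison shares the induced E2 libraries with the first, so the counts are not independent of each other. XBP1 was 2.67-fold higher (log2 1.42, SE 0.05, edgeR adjusted p = 2.64e-11), WFS1 2.41-fold (log2 1.27, SE 0.08) and DNAJB9 2.07-fold (log2 1.05, SE 0.06). DNAJC3 was higher by 0.55 log2 (SE 0.06), EIF2AK3 by 0.47 (SE 0.05), MANF by 0.44 (SE 0.06) and SDF2L1 by 0.41 (SE 0.06).

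Some genes rose in that comparison that did not pass the test for E2 in induced cells. CREB3L2 was 0.28 log2 higher in induced E2 than in uninduced E2 cells (SE 0.06, edgeR adjusted p = 0.00175), ERO1LB 0.36 (SE 0.09, edgeR adjusted p = 0.00544) and EDEM1 0.32 (SE 0.08, edgeR adjusted p = 0.00577). DNAJC10 was 0.14 log2 higher (SE 0.04) and SEC61B 0.16 log2 higher (SE 0.04). The 6 genes not called were ERN1 (edgeR adjusted p = 0.0531, or 0.0382 with the block), HSP90B1 (edgeR adjusted p = 0.0599, or 0.00306 with the block), ATF6 at 0.09, CRELD2 at 0.10, DERL1 at 0.07 and DERL3 at 0.40 log2. Of these, ERN1 was also called without uninduced vehicle replicate 3 or uninduced E2 replicate 2 (adjusted p = 0.0489 and 0.0447), HSP90B1 without uninduced vehicle replicate 1 or uninduced E2 replicate 1 (adjusted p = 0.0351 and 0.0268) and DERL3 without uninduced E2 replicate 2 (adjusted p = 0.0343). The stricter filter and limma-voom called ERN1 and HSP90B1 too, and DESeq2 called HSP90B1 (adjusted p = 0.0370 to 0.0492). The calls of CANX, DERL2, PDIA3 and SEL1L, with adjusted p = 0.0103 to 0.0359, were each lost without at least 1 of uninduced E2 replicates 2 or 3 or induced E2 replicates 2 or 3 (adjusted p = 0.0549 to 0.136), and all but that of SEL1L under upper quartile scaling too (adjusted p = 0.0529 to 0.215). The call of PDIA3 was also lost with no filter (adjusted p = 0.0574) and with only the groups compared (adjusted p = 0.0663).

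Uninduced E2 against uninduced vehicle cells showed what the ligand did without doxycycline. None of the 36 genes was called by edgeR, and 0% of all genes tested were. At an unadjusted p under 0.05 the counts were 0 of the 36 and 227 of the 14541 genes. DESeq2 called 0 of the 36 and 1 gene in all. The median difference of the 36 was 0.00 log2, and 19 were positive, as were 7196 of the 14541 tested. Of the 36 differences 18 were positive between the libraries numbered 1 and 19 in those numbered 2 and 3, which gave no call. Leaving out DERL3 (−0.24 log2, 95% interval −0.76 to 0.28), the differences ran from −0.13 log2 in ERO1LB to 0.07 in SDF2L1, and the intervals lay within −0.32 and 0.24 log2. XBP1 was at 0.05 log2 (95% interval −0.05 to 0.15), WFS1 at −0.07 (95% interval −0.26 to 0.12) and HSPA5 at 0.03 (95% interval −0.06 to 0.12). In 1 gene, DERL2, the groups did not overlap, against 3.64% of all genes tested that were higher without overlap.

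The difference between the E2 responses of induced and uninduced cells was tested as the interaction. It is built from the libraries of both E2 comparisons, so its counts are not independent of theirs. Of the 36 genes, 11 had a larger E2 change in induced than in uninduced cells and 0 had a smaller one, against 5.66% and 2.81% of all genes tested. They were 2 of 5 sensors and transcription factors (XBP1 and EIF2AK3), 5 of 11 XBP1 branch genes (DNAJB9, WFS1, DNAJC3, SEC24D and DNAJB11), 3 of 11 ATF6 branch genes (MANF, HSPA5 and HYOU1) and 1 of 9 degradation genes (HERPUD1). The median interaction of the 36 was 0.21 log2 and that of all genes −0.01 log2. All 36 values were positive, as were 7050 of the 14541 tested. WFS1 had the largest called value, 1.16 log2 (SE 0.12, edgeR adjusted p = 2.67e-05), followed by XBP1 at 0.80 (SE 0.06, edgeR adjusted p = 2.28e-06) and DNAJB9 at 0.79 (SE 0.09, edgeR adjusted p = 4.65e-05).

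With the block 17 of the 36 genes passed the interaction test, all with a larger E2 change in induced cells, against 8.86% of all genes with a larger and 5.88% with a smaller one, the additional ones being SEC61A1 (adjusted p = 0.00785), SEL1L (adjusted p = 0.0384), SSR1 (adjusted p = 0.0238), SYVN1 (adjusted p = 0.0110), EDEM1 (adjusted p = 0.0356) and EDEM3 (adjusted p = 0.0201). Between the libraries numbered 1, 31 of the 36 interaction values were positive, and in those numbered 2 and 3 all 36 were. Numbers 2 and 3 alone gave 18 genes with a larger E2 change in induced cells, against 8.73% of all genes with a larger and 5.67% with a smaller one. The 7 added were the same 6 as with the block and CREB3L2 (adjusted p = 0.0217). With single libraries left out, SEC61A1, SEL1L, SSR1, SYVN1 and DERL3 were called in some cases. These were without uninduced vehicle replicate 1 for SEC61A1 (adjusted p = 0.0388), without induced vehicle replicate 1 for SEL1L (adjusted p = 0.0316) and without induced E2 replicate 1 for SSR1 (adjusted p = 0.0355). For SYVN1 they were without uninduced vehicle replicate 3 or uninduced E2 replicate 1 (adjusted p = 0.0179 and 0.0326), and for DERL3 without uninduced E2 replicate 2 (adjusted p = 0.0497).

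In the other direction, HYOU1 remained called without induced E2 replicate 2, without uninduced E2 replicate 1 and without uninduced vehicle replicate 3, and leaving out any other single library gave adjusted p = 0.0699 to 0.123. DNAJB11 lost its call without uninduced vehicle replicates 1 or 3, uninduced E2 replicate 3, induced vehicle replicate 3 or induced E2 replicate 3 (adjusted p = 0.0525 to 0.0763). SEC24D lost its call without uninduced vehicle replicates 2 or 3, uninduced E2 replicate 3 or induced E2 replicate 3 (adjusted p = 0.0525 to 0.0741). Under upper quartile scaling HYOU1 and DNAJB11 were not called (adjusted p = 0.0815 and 0.0580).

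The rest of the pathway was read through 6 further lists, 136 genes of which 133 were tested. For E2 in induced cells 27 of these 133 rose and 3 fell (41 rose and 4 fell with the block), and their median was 0.06 log2. The background for these counts is that of the same comparison above, 9.85% of all genes that rose and 6.61% that fell (13.5% and 10.3% with the block). Genes that rose were 6 of 16 in the PERK, ATF4 and CHOP arm (37.5%, 10 genes with the block) and 9 of 25 other ER export genes (36%, 11 genes with the block). Of other translocon, signal peptidase and glycosylation genes 6 of 30 rose (20%, 9 genes with the block). Of other folding and redox genes 4 of 30 rose (13.3%, 5 genes with the block), and of other degradation genes 2 of 21 (9.52%, 5 genes with the block). In the main fit the shares of the folding and redox list and of the other degradation list were near the background. The PERK arm count was 3 under upper quartile scaling and without induced vehicle replicate 2 or 3, and the translocon count was 3 under upper quartile scaling and without induced vehicle replicate 3. Over all genes 1258 rose and 1206 fell under that scaling. Without induced vehicle replicate 2 the numbers were 1149 and 609, and without replicate 3 they were 1131 and 643. The further lists together had 41 that rose and 5 that fell in libraries numbered 2 and 3, against 13.1% and 10.1% of all genes. Of 11 regulators outside the 36, none rose and 2 fell, while 1 gene fell among the translocon, signal peptidase and glycosylation genes and none in the other 4 lists.

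In the PERK arm, which runs through translation factor eIF2 and the transcription factor ATF4, ATF3 rose by 0.45 log2 (SE 0.07, edgeR adjusted p = 0.000267). It stood at 31.2, 37.0 and 36.1 CPM in induced E2 cells, against 24.5, 26.0 and 26.0 CPM in induced vehicle cells. The transcription factor CEBPB rose by 0.24 log2 (SE 0.05) and PPP1R15B, a phosphatase subunit that restores translation, by 0.23 (SE 0.06). ATF4 itself rose by 0.13 log2 (SE 0.04, edgeR adjusted p = 0.0283). The call of ATF4 was lost under upper quartile scaling (adjusted p = 0.0638) and without induced vehicle replicate 1 or induced E2 replicates 2 or 3 (adjusted p = 0.0906 to 0.105), and that of PPP1R15B without induced vehicle replicates 2 or 3 (adjusted p = 0.0532 and 0.0503). The other 2 called genes of the arm, given here after their values were seen, were CHAC1, which encodes an enzyme that breaks down glutathione, at 0.26 log2 (SE 0.08, edgeR adjusted p = 0.0385), and DDIT3, which encodes the transcription factor CHOP, at 0.45 log2 (SE 0.14, edgeR adjusted p = 0.0431). CHAC1 was not called under upper quartile scaling, with DESeq2, with only the groups compared, in libraries numbered 2 and 3, or without induced vehicle replicates 2 or 3, induced E2 replicate 1 or uninduced E2 replicate 2 (adjusted p = 0.0518 to 0.139). DDIT3 was not called under upper quartile scaling, with only the groups compared, or without induced vehicle replicates 2 or 3, induced E2 replicates 1 or 3, or replicate 2 or 3 of either uninduced group (adjusted p = 0.0516 to 0.217).

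Among ER export genes, MCFD2, a cargo receptor subunit, had 274, 272 and 271 CPM in induced E2 cells, against 206, 189 and 190 CPM in induced vehicle cells (log2 0.49, SE 0.04, edgeR adjusted p = 7.82e-07). ARFGAP3, which acts on Golgi coats, rose by 0.48 log2 (SE 0.05). The COPII subunit SEC23B rose by 0.33 (SE 0.05), and PREB, the exchange factor that starts COPII assembly, by 0.32 (SE 0.05). In the translocon list SRP68 of the signal recognition particle rose by 0.22 log2 (SE 0.03), SSR3 by 0.21 (SE 0.04) and SERP1 by 0.17 (SE 0.03). TRAM2, a translocon-associated protein, fell by 0.61 log2 (SE 0.07, edgeR adjusted p = 2.70e-05), with 56.5, 46.1 and 51.1 CPM in induced E2 cells, against 82.7, 75.0 and 76.8 CPM in induced vehicle cells.

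Of folding and redox genes, HSPA13, a microsomal HSP70 relative, rose by 0.55 log2 (SE 0.07), the sulfhydryl oxidase QSOX1 by 0.47 (SE 0.05), the prolyl isomerase FKBP14 by 0.30 (SE 0.07) and MESDC2, a chaperone for LDL receptor family proteins, by 0.25 (SE 0.06). Among the other degradation genes the lectin ERLEC1 rose by 0.15 log2 (SE 0.05, edgeR adjusted p = 0.0385), which was not called under upper quartile scaling (adjusted p = 0.0972), with only the groups compared (adjusted p = 0.0685), or without uninduced vehicle replicate 3, induced vehicle replicates 2 or 3 or any 1 induced E2 library (adjusted p = 0.0549 to 0.157).

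Both regulators that fell are transcription factors. NFYB, a subunit of the NF-Y complex that binds CCAAT, had 36.5, 39.2 and 38.6 CPM in induced E2 cells, against 55.3, 54.7 and 58.1 CPM in induced vehicle cells. It stood at 68.5, 68.1 and 72.9 CPM in uninduced E2 cells and at 75.3, 67.2 and 69.7 CPM in uninduced vehicle cells. NFYB fell by 0.55 log2 with E2 in induced cells (SE 0.05, edgeR adjusted p = 2.77e-06) and by 0.33 log2 with doxycycline without E2 (SE 0.05, edgeR adjusted p = 0.00130). CREB3L4, an ER-tethered relative of CREB3L2, had 34.2, 33.5 and 35.4 CPM in induced E2 cells, against 39.6, 40.5 and 40.4 CPM in induced vehicle cells (log2 −0.23, SE 0.05, edgeR adjusted p = 0.00559). With doxycycline and no E2 it rose by 0.31 log2 (SE 0.05, edgeR adjusted p = 0.00276).

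**Figure D4:**
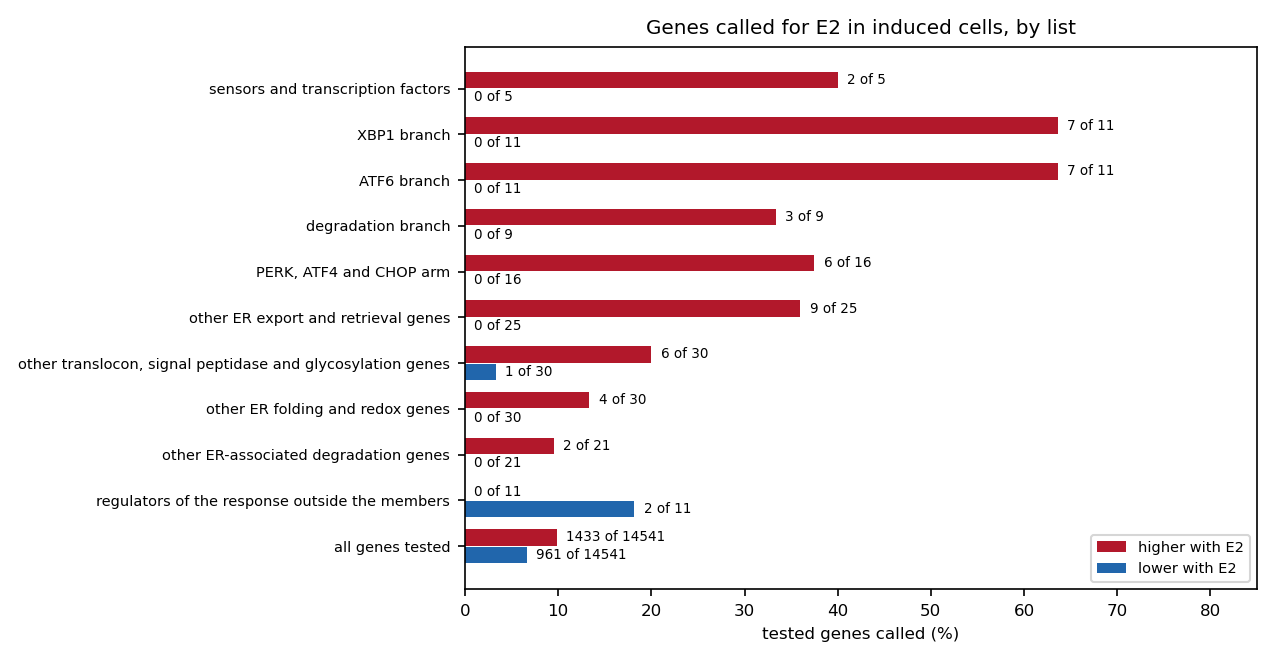
Share of tested genes called higher or lower with E2 in induced cells (x axis, percent; bars start at 0), for the 4 role groups of the 36 genes, 6 further pathway lists and all genes tested, with the counts beside the bars. Both the XBP1 branch and the ATF6 branch stand at 7 of 11 higher, against 1433 of 14541 over all genes.

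For doxycycline without E2, 6 of the 133 further pathway genes (4.51%) rose and 1 fell, against 2.44% of all genes that rose and 1.37% that fell. With the block 18 rose and 3 fell, against 5.54% and 4.48% of all genes. In libraries numbered 2 and 3, 10 rose and 4 fell, against 4.4% and 3% of all genes. For doxycycline with E2, 51 (38.3%) rose and 5 fell, against 15% and 13% of all genes. For the interaction 11 (8.27%) were higher and 3 lower, against 5.66% and 2.81% of all genes, so in the main fit the share called higher was near the background. With the block 26 of the 133 were higher and 5 lower, against 8.86% and 5.88% of all genes. In libraries numbered 2 and 3 the numbers were 25 and 5 of the 133, against 8.73% and 5.67% of all genes. In both of these settings the share called higher was above the background. For E2 in uninduced cells none was called by edgeR.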

How the data were processed

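RNA sequencing of 12 libraries was used. The authors deposited RSEM expected counts per gene symbol for each library, with a further column that gives each gene's fraction of transcripts, summing to 1 in a library; this unit was read from the values. RSEM 1.1.16, DESeq 1.7.10 and build hg19 are named, without roles, in the submitters' processing notes. The read aligner and the strand setting are not given in the sources used here, so reads of overlapping genes cannot be told apart.

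Expected counts were rounded. Genes were kept by filterByExpr (minimum count 10, minimum total 15), libraries were scaled by TMM, and edgeR 4.0.16 in R 4.3.3 fitted the quasi-likelihood model over the 4 group means and all 12 libraries (8 residual degrees of freedom, biological coefficient of variation 5.34%). P-values were adjusted by Benjamini-Hochberg over the 14541 genes tested, with calls made under 0.05. Levels are TMM-scaled CPM, with the deposited fractions rescaled to TPM where genes are compared. A floor of 3 counts came to at most 0.375 CPM, below every value of the 36 genes, and covers counting error only.

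The interaction subtracts the E2 difference of uninduced cells from that of induced cells. The 36 genes, the role groups and the further lists were chosen with earlier results of these data known. Library values are given for all sensors and transcription factors, for HSPA5, and for up to 4 genes of each role group by smallest p for E2 in induced cells. Of each further list up to 4 called genes are named by the same rule, or up to 2 where none was called. The library values of EDEM1 and DERL3, and of genes in the further lists, were added after they were seen. The values of 2 other genes are not reported here.

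The replicate numbers pair the samples because, per the file names, each number stands for 1 lane and date in all groups: number 1 for an earlier date, numbers 2 and 3 for a later date on different lanes. Deviations from the group mean correlated at 0.041 to 0.433 between same-numbered libraries of different groups (median 0.219, 18 pairs, 12422 genes) and at −0.398 to 0.321 between others (median −0.188, 36 pairs). A fit with the number as a block has 6 residual degrees of freedom and a biological coefficient of variation of 2.90%, against 5.34% in the main fit. The block was kept as an alternative because the study's methods state none. With it at least as many of the 36 genes were called in every comparison, so some genes not called in the main fit owe this to the model. In counts, number 1 libraries differed from the others of their group by a chi-square of 4.31 to 7.14 per gene and numbers 2 and 3 by 1.63 to 2.65, so no library was a copy of another.

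The alternatives, 21 in number, were RLE and upper quartile scaling, DESeq2 1.42.0, limma-voom (limma 3.58.1), no filter, a filter at 50 counts, the block, libraries numbered 2 and 3 only, only the groups compared, and each library left out. Promoter windows came from RefSeq, and ERO1LB was matched under its newer symbol, ERO1B.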

Additional observations from a re-analysis of the deposited data

Results flagged for a closer look

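For 11 of the 36 genes the E2 difference in induced cells (induced E2 over induced vehicle) was larger than that in uninduced cells (uninduced E2 over uninduced vehicle) by the interaction test of edgeR with Benjamini-Hochberg adjustment over all genes tested. On the log2 scale this excess was 1.16 in WFS1 (adjusted p = 2.67e-05), 0.80 in XBP1 (adjusted p = 2.28e-06) and 0.79 in DNAJB9 (adjusted p = 4.65e-05). It was 0.48 in EIF2AK3 (adjusted p = 0.000387), 0.41 in HERPUD1 (adjusted p = 0.000154), 0.40 in MANF (adjusted p = 0.00836) and 0.40 in DNAJC3 (adjusted p = 0.0113). SEC24D had 0.38 (adjusted p = 0.0215), HSPA5 0.26 (adjusted p = 0.0126), DNAJB11 0.24 (adjusted p = 0.0246) and HYOU1 0.24 (adjusted p = 0.0443). The calls of SEC24D, DNAJB11 and HYOU1 were each lost when certain single libraries were left out. This excess is built in part from the E2 difference in induced cells and is not independent of it. Groups of 3 libraries are too small for a test of single outlying samples, and none was made.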

How the results depend on the processing

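No direction of a called difference turned in any of the 36 genes under the 21 alternatives (20 for the interaction, which cannot be had from only the groups of 1 comparison). For E2 in induced cells the 19 genes called became 15 to 23 with each library left out and 27 with the replicate block, and for doxycycline with E2 the 30 became 27 to 31 and 32. The counts over all genes moved as well in these settings. For E2 in induced cells 2394 became 1758 to 2481 and 3460, and for doxycycline with E2 4078 became 3309 to 4410 and 5420. For doxycycline without E2 the 2 genes became 1 under upper quartile scaling, 1 with only the groups compared, 4 with libraries numbered 2 and 3 only, 6 with the block and 1 to 3 with each library left out. The 11 genes of the interaction became 17 with the block, 18 with libraries numbered 2 and 3 only and 8 to 12 with each library left out, and E2 in uninduced cells gave 0 throughout. Over all genes, doxycycline without E2 called 554, against 1456 with the block, 1082 with libraries numbered 2 and 3 only and 364 to 621 with each library left out. The interaction called 1232, against 2143 with the block, 2105 with libraries numbered 2 and 3 only and 945 to 1407 with each library left out. The block changed no call of the 36 genes other than those given with it above. No scaling moved the median of all genes by over 0.1 log2, and upper quartile scaling moved it most. For doxycycline with E2 it took that median from −0.01 to −0.05 log2 and the median of the 36 from 0.25 to 0.21. For doxycycline without E2 it left 25 of the 36 differences positive, against 29 in the main fit. Allowing 1 mismatch, ERSE was found in 15 genes, ERSE-II in 7, the XBP1 core in 21 and the estrogen response element in 0, against 1.89%, 1.46%, 44.6% and 1.01% of all symbols. Intervals were wide in lowly expressed genes such as DERL3 and ERN1, and counting error was not separated there from the spread between libraries.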
